A study of Homo sapiens with 9 samples.

Results

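The genes described here are 38 interferon-stimulated and RNA sensing genes, measured in A549 cells whose FAM210B or UQCRC2 RNA was targeted with small interfering RNA (siRNA). The members were chosen by name, as genes known to respond to interferon or to sense RNA in the cell. Earlier results of these data were known when they were chosen. The shares of members called below are therefore descriptive, and no test of the members as a set was made. They are 38 of the 22411 genes that the array annotation names singly. Of the 38, 35 had an array row that names that gene alone. STAT2, IRF9 and TRIM22 had no such row and were not analysed here. Another 10 members lay under a log2 signal of 4.25, the median of all rows, and 25 were tested together with the other genes above that level, 15964 in all.

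A549 is an established human line from a lung adenocarcinoma. There were 3 groups of 3 arrays: si-FAM210B, si-UQCRC2 and si-negative control, all lysed 72 h after transfection. The product of FAM210B sits in the mitochondrial membrane and that of UQCRC2 in the core of respiratory complex III. Each siRNA was a mixture, per the series' design text. All 3 groups, the control included, had received siRNA. No array of untransfected cells was among those analysed, so a response that every transfection shared cannot be seen in these comparisons. Replicates carry the word biological in the labels, but nothing states that they came from separate cultures. P-values therefore cover only the spread between these arrays, which may be technical. In bulk RNA of a culture, fewer cells of a type and less RNA per cell cannot be told apart.

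Cells recognise foreign RNA through cytoplasmic sensors such as RIGI and through the endosomal receptor TLR3. Sensing leads to the secretion of type I and type III interferons, which act on receptors at the cell surface and activate transcription factors. These bind a short element in the promoters of interferon-stimulated genes, many of whose products restrict viruses or are themselves RNA sensors. Synthetic siRNAs can set off these pathways, and interferon-stimulated genes are commonly measured as a check for it.

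The promoter stretches below show this element in members that differ in how they behaved. Each is the 50-base stretch of the member's own strand around a match to the element core, which is GAAA, any 2 bases and GAAA again (on the other strand TTTC, any 2 bases, TTTC), with each complete match in capitals. They come from RefSeq's annotated gene starts in GRCh38.p14. SAMD9, IFITM3 and IFI6 were higher in si-UQCRC2 than in control. IFITM1, ISG15 and OAS3 did not pass the test in either targeted group against control, and IFIT1 lay under the level filter.
SAMD9, chr7:93118086-93118135, minus strand: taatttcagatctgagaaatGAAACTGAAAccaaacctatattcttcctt
IFITM3, chr11:320866-320915, minus strand: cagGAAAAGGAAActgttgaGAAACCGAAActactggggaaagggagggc
IFI6, chr1:27672256-27672305, minus strand: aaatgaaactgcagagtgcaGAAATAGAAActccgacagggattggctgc
IFITM1, chr11:313980-314029, plus strand: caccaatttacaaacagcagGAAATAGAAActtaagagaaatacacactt
ISG15, chr1:1013370-1013419, plus strand: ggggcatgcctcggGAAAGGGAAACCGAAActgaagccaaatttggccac
OAS3, chr12:112938424-112938473, plus strand: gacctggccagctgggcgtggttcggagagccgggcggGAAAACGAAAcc
IFIT1, chr10:89392500-89392549, plus strand: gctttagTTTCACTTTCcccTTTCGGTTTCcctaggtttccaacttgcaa

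In ISG15 the capitals are 2 matches that overlap each other. Over windows of 300 bases, from 250 before to 50 after an annotated start, 1255 of 35116 windows held a match on either strand (3.57%). Of the 30 members with a window, 20 held a match (66.7%), against 1195 of 27305 genes (4.38%). SAMD9, IFITM3 and IFI6, which rose in si-UQCRC2, held a match. RIGI and IFI30 rose there without one in their windows, and IFITM2 had no window in the table. Among the 19 tested members that did not pass in si-UQCRC2, 11 held a match and 5 did not. Match positions are a description of letters only and name no bound factor.

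**Figure D1:**
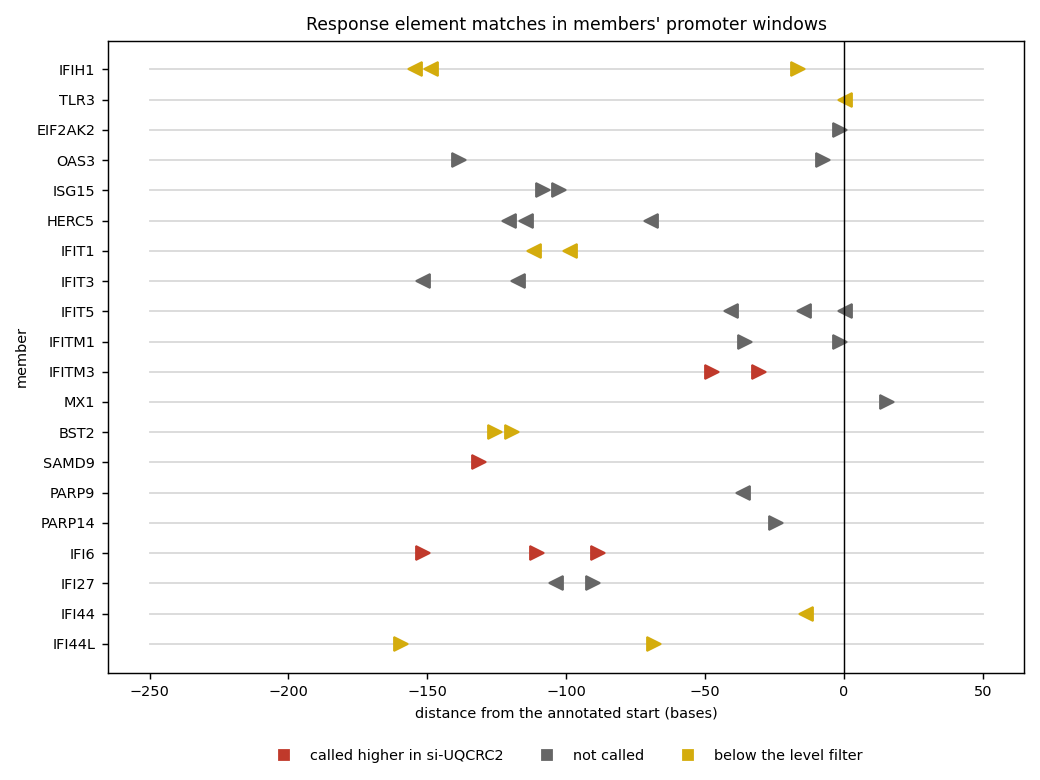
Each line is the promoter window of a member with a response element match, in bases from the annotated start at 0; triangles mark matches and point along the strand that reads the GAAA repeats (right for the gene's own strand). Red marks members called higher in si-UQCRC2 than in control, grey tested members not called there and yellow members under the level filter; 20 members are shown.

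Values below are log2 signals that the authors summarised with the RMA method. A change is a difference of group means in log2 units with its standard error (SE) from limma. There were n = 3 arrays per group except where arrays were left out. A member is called changed where its Benjamini-Hochberg adjusted p, over all 15964 genes tested, was under 0.05. Levels of different genes come from different probes and are not set against each other. The exact two-sided permutation p of each called member was 0.1, the smallest that 3 against 3 arrays allow, so the calls rest on limma's spread shared between genes. That spread was also pooled over the 3 groups, which differed in it. The median SD of the tested genes was 0.13 in si-FAM210B, 0.088 in control and 0.038 in si-UQCRC2. With only the groups compared in the fit, calls over all genes went from 1002 to 227 in si-FAM210B and from 712 to 1449 in si-UQCRC2, each against control.

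The label checks came out unevenly. UQCRC2 RNA was at 8.34, 8.37 and 8.37 in si-UQCRC2 and at 9.96, 9.84 and 9.70 in control, a change of -1.47 ± 0.14 (SE, limma adjusted p = 0.000375). FAM210B RNA was at 6.48, 6.10 and 6.22 in si-FAM210B and at 6.39, 6.46 and 6.48 in control, a change of -0.17 that did not pass (adjusted p = 0.239). The FAM210B signal therefore did not show a lower target in the arrays labelled si-FAM210B, and replicate 1 read as high as the controls, so si-FAM210B names these arrays by their label throughout, directions included. The epithelial keratins KRT8 and KRT18 averaged 11.3 and 11.5 over the 9 arrays, and 5 of 10 measured markers of blood, endothelial and fibroblast cells lay under the level filter, at 2.50 to 2.94. The other 5 passed it, with means of 4.54 (CD3E), 4.80 (VWF), 4.85 (CDH5), 5.10 (CD14) and 6.52 (COL1A1), and none of these was called against control. Of 8 epithelial markers, 2 fell in si-FAM210B against control, CDH1 (-1.09), which encodes E-cadherin, and AKR1C1 (-0.36), and EPCAM rose in si-UQCRC2 (0.24). These are 25% and 12.5% of the list, against 6.28% and 4.46% of all genes tested. The AKR1C1 call was lost without any control or si-UQCRC2 array (adjusted p from 0.0518 to 0.173), and the EPCAM call without si-FAM210B replicate 3 or any control or si-UQCRC2 array (0.057 to 0.221). Both were also lost with no filter (0.0534 and 0.0567) and on median centring (0.0858 and 0.08), AKR1C1 with only the groups compared in the fit (0.159), and EPCAM on quantile normalization (0.0647) and with a robust trended fit (0.0501). Between si-FAM210B and si-UQCRC2, 3 epithelial markers (37.5%, against 9.78% of all genes tested) were lower in si-FAM210B, CDH1 (-0.96, adjusted p = 2.44e-05), EPCAM (-0.44, 0.00185) and KRT8 (-0.34, 0.00673). COL1A1, a fibrillar collagen of fibroblasts, was higher there (0.40, adjusted p = 0.0205), a call lost without si-FAM210B replicate 3 or any si-UQCRC2 array (0.0615 to 0.0887). The part of these markers in the members' changes was not tested. Among the arrays, 2 stood apart: the deviations of si-FAM210B replicate 1 and control replicate 3 from their groups correlated across genes (r = 0.742, genes not being independent replicates). Of the 25 tested members, 8 had both arrays as the highest of their group and 6 had both as the lowest.

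In si-UQCRC2 against control, 6 of 25 tested members rose and 0 fell. They were IFITM2 and IFITM3, SAMD9, RIGI, IFI6 and IFI30. These 6 are 24% of the tested members, and of all genes tested 4.46% were called, 3.02% higher and 1.44% lower. The median change of the 25 members was 0.04 and that of all genes tested was -0.01. The groups did not overlap for 12 members (48%), against 29.2% of all genes tested. The 19 members that did not pass lay between -0.22 and 0.27, and their 95% confidence intervals reached at most 0.53 upwards (PARP14, 1.45-fold) and -0.35 downwards (IFI35).

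In si-FAM210B against control, 2 of 25 tested members fell, OAS1 and IFI30, and 0 rose. These 2 are 8% of the members, and 6.28% of all genes tested were called, 2.78% higher and 3.50% lower. At an unadjusted limma p under 0.05, 2 members were higher and 5 lower, while 1965 and 2196 of the 15964 genes tested were. The median change was -0.01 for the members and 0.03 for all genes tested, and 7 members (28%) had groups that did not overlap, against 24.0% of all genes. The 23 members that did not pass lay between -0.23 and 0.22, with confidence intervals that reached at most 0.42 upwards (SAMD9, 1.34-fold) and -0.45 downwards (EIF2AK2).

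Set directly against each other, si-FAM210B was lower than si-UQCRC2 for 8 members and higher for 1, OAS3. The 9 are 36% of the members, against 9.78% of all genes tested, 3.28% higher and 6.50% lower. The 8 lower members were RIGI, OAS1, IFITM2, IFITM3, SAMD9, PARP9, IFI6 and IFI30. Groups did not overlap for 17 members (68%), against 41.7% of all genes. Both targeted groups were compared with the same control arrays, so the first 2 comparisons are not independent of each other. With each array's values centred on its median, 0 members were higher and 7 lower (28%, against 7.29% of all genes tested).

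The number of calls depended on the 2 arrays that stood apart. Leaving them out left 2 arrays each in si-FAM210B and control. The arrays left out were chosen because they deviated, which narrows the spread. Adjusted p-values from that fit, here and below, are therefore descriptive. Without si-FAM210B replicate 1 and control replicate 3, 5 members were called lower in si-FAM210B and 0 higher, 8 higher and 2 lower in si-UQCRC2, and 2 higher and 11 lower in the direct comparison. These are 20%, 40% and 52% of the members, while 24.4%, 17.1% and 24% of all genes tested were then called, so the share in si-FAM210B lay below that of all genes. All members called with every array were also called without these 2.

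**Figure D2:**
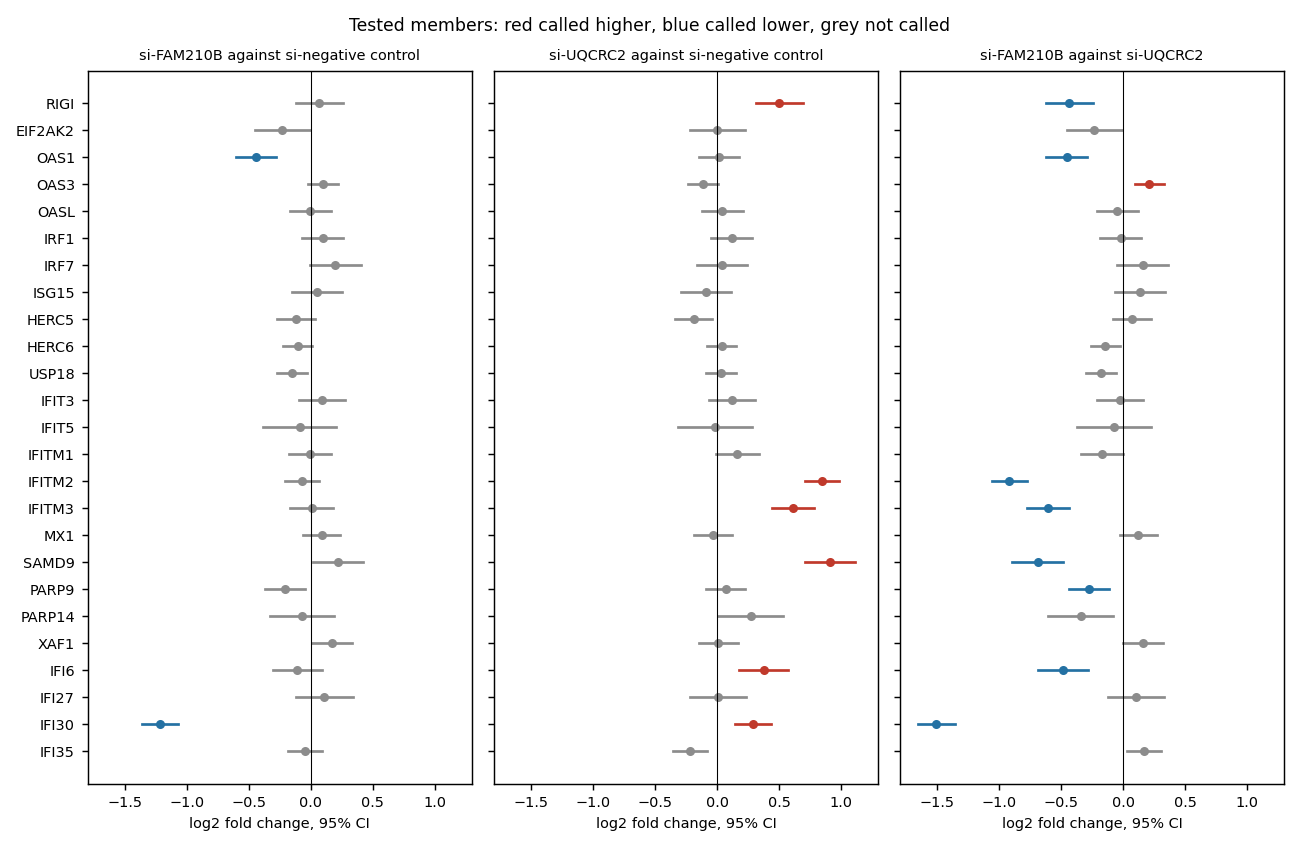
Change of each of the 25 tested members in the 3 comparisons (x axis, log2 fold change; points, limma estimates; lines, 95% confidence intervals; n = 3 arrays per group), with called increases in red, called decreases in blue and the rest in grey. IFITM2, IFITM3 and SAMD9 lie farthest to the right in si-UQCRC2 against control, and IFI30 farthest to the left in si-FAM210B.

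Among the RNA sensors and the enzymes that act on or through RNA duplexes, RIGI was the one that rose in si-UQCRC2. RIGI encodes the helicase that detects short viral RNA in the cytoplasm. Its log2 signal was 5.52, 5.65 and 5.56 in si-UQCRC2, 5.11, 5.18 and 4.93 in control and 5.02, 5.27 and 5.13 in si-FAM210B. All si-UQCRC2 arrays lay above all others, while control and si-FAM210B overlapped. RIGI rose by 0.50 ± 0.08 (SE, adjusted p = 0.0094), or 1.42-fold. Leaving out si-UQCRC2 replicate 2 ended that call (adjusted p = 0.062), as did median centring (0.0538). RIGI in si-FAM210B minus si-UQCRC2 was -0.43 (adjusted p = 0.0126), a call lost without si-UQCRC2 replicate 2 or 3 (0.0687 and 0.0556).

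OAS1 encodes an enzyme that, once bound to RNA duplexes, makes the oligoadenylates that activate the nuclease RNase L. It was at 5.18, 5.46 and 5.32 in si-FAM210B (5.32 ± 0.15, SD), at 5.80, 5.72 and 5.76 in control and at 5.79, 5.74 and 5.80 in si-UQCRC2. Every si-FAM210B array lay below every other array, and the other groups overlapped. OAS1 fell in si-FAM210B by 0.44 ± 0.07 (SE, adjusted p = 0.00827), which left 73.7% of the control signal. The adjusted p was 0.0636 when only the si-FAM210B and control arrays entered the fit. Against si-UQCRC2 the difference was -0.46 (adjusted p = 0.00545).

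OAS3 makes the same oligoadenylates, and it did not follow OAS1. Its signal was 7.18, 7.12 and 7.19 in si-FAM210B, 7.03, 7.09 and 7.07 in control and 7.00, 6.95 and 6.91 in si-UQCRC2. The 3 groups did not overlap, with si-FAM210B at the top and si-UQCRC2 at the bottom. Neither targeted group passed against control (adjusted p = 0.252 and 0.366), and they differed from each other by 0.21 ± 0.05 (SE, adjusted p = 0.0358). That call was lost on median centring (0.187), with only these 2 groups in the fit (0.0732) and when any of 6 arrays was left out, namely si-FAM210B replicate 3, control replicates 1 and 2, or any si-UQCRC2 array (adjusted p from 0.0523 to 0.162). 

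EIF2AK2, the kinase that halts translation when it binds RNA duplexes, read 8.53, 8.92 and 8.85 in si-FAM210B, 9.09, 9.02 and 8.88 in control and 9.02, 8.95 and 9.02 in si-UQCRC2. Its difference of -0.23 in si-FAM210B did not pass (adjusted p = 0.179), and si-FAM210B replicate 1 was its lowest array. Without both arrays that stood apart, EIF2AK2 was called at -0.17 (adjusted p = 0.0401). OASL, a relative of the OAS enzymes without their activity, differed by at most 0.05 between any groups and was not called. IFIH1, TLR3 and OAS2 lay under the level filter.

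The interferon-induced transmembrane proteins hinder the fusion of viruses with cell membranes, and 2 of the 3 members of the family rose in si-UQCRC2. IFITM2 was at 9.72, 9.87 and 9.85 in si-UQCRC2 (9.81 ± 0.08, SD), 8.96, 8.91 and 9.02 in control and 8.92, 8.94 and 8.82 in si-FAM210B. The si-UQCRC2 arrays stood well above both other groups, which overlapped. IFITM2 rose by 0.85 ± 0.06 (SE, adjusted p = 0.000126), or 1.80-fold, and the call held in each of 19 alternative settings. In si-FAM210B its change was -0.07 (95% interval -0.21 to 0.07, adjusted p = 0.447).

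IFITM3 was at 7.47, 7.66 and 7.55 in si-UQCRC2, 6.92, 6.88 and 7.04 in control and 7.07, 6.93 and 6.87 in si-FAM210B. Again only si-UQCRC2 lay apart from the other groups. IFITM3 rose by 0.61 ± 0.08 (SE, adjusted p = 0.00176), or 1.53-fold, and was called in each of 19 alternative settings. IFITM2 and IFITM3 are near-identical paralogs, so their probes may not separate them. IFITM1 read 5.80, 6.02 and 5.96 in si-UQCRC2 and 5.67, 5.73 and 5.89 in control, and the groups overlapped. Its difference of 0.16 did not pass with all arrays (adjusted p = 0.352), and without both arrays that stood apart it was 0.23 (adjusted p = 0.0479).

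SAMD9, a cytoplasmic protein that restricts poxviruses and arrests translation, showed the largest positive change of the tested members in si-UQCRC2. Its signal was 5.28, 5.44 and 5.34 in si-UQCRC2, 4.41, 4.41 and 4.49 in control and 4.70, 4.82 and 4.46 in si-FAM210B. The si-UQCRC2 arrays were all above 5 and the others below it. SAMD9 rose by 0.91 ± 0.09 (SE, adjusted p = 0.000491), or 1.88-fold, and was called in all 18 alternatives that kept it. In si-FAM210B the difference of 0.22 did not pass (adjusted p = 0.16), and the difference of si-FAM210B from si-UQCRC2 was -0.69 (adjusted p = 0.00203).

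SAMD9L, the neighbouring paralog of SAMD9 whose probes may also take up its RNA, lay under the level filter and is named after its values were seen. It read 4.22, 4.20 and 4.20 in si-UQCRC2, 4.09, 4.38 and 4.14 in si-FAM210B and 3.85, 3.82 and 3.73 in control. Both targeted groups lay above all controls and overlapped each other. With no filter, SAMD9L was called higher in si-FAM210B (0.41, adjusted p = 0.0194) and in si-UQCRC2 (0.41, adjusted p = 0.0198).

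**Figure D3:**
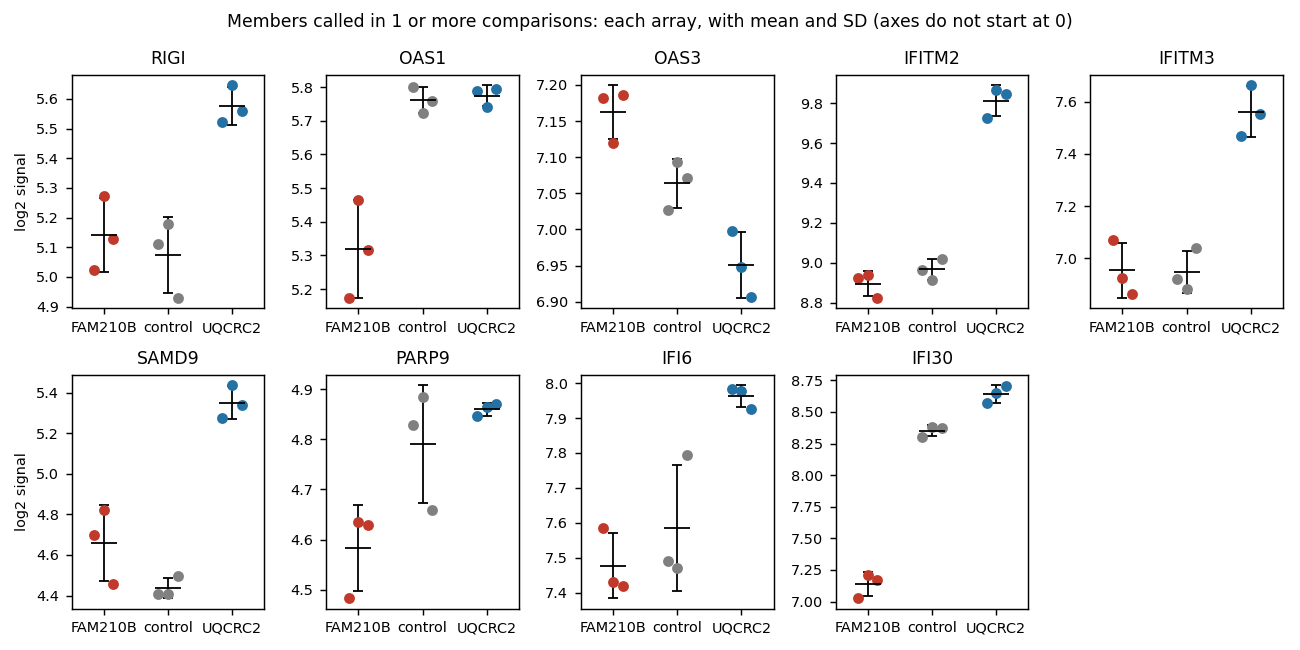
Log2 signal of the 9 members called in any comparison, 1 panel per gene with its own axis that does not start at 0; points are single arrays, bars the mean and SD of the 3 arrays of si-FAM210B (red), control (grey) and si-UQCRC2 (blue). IFITM2, IFITM3, SAMD9 and RIGI separate si-UQCRC2 from both other groups, and OAS1 and IFI30 separate si-FAM210B.

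IFI30 gave the largest change of any member, in si-FAM210B. It encodes a lysosomal thiol reductase that unfolds antigens for presentation and is known above all as a target of interferon gamma. Its log2 signal was 7.03, 7.21 and 7.17 in si-FAM210B (7.14 ± 0.10, SD), 8.30, 8.38 and 8.37 in control (8.35 ± 0.04) and 8.57, 8.65 and 8.70 in si-UQCRC2 (8.64 ± 0.07). The 3 groups did not overlap, and the si-FAM210B arrays lay far below the rest. IFI30 fell in si-FAM210B by 1.22 ± 0.07 (SE, adjusted p = 1.82e-05) to 43.0% of the control signal, and the call held in each of 19 alternative settings. In si-UQCRC2 it rose by 0.29 ± 0.07 (SE, adjusted p = 0.0377). That smaller call was lost on median centring (0.128) and when any array but si-FAM210B replicates 1 and 2 was left out (adjusted p from 0.0599 to 0.192). The difference of si-FAM210B from si-UQCRC2 was -1.51 (adjusted p = 4.73e-06).

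IFI6, an inhibitor of apoptosis and of flavivirus replication, was at 7.98, 7.98 and 7.93 in si-UQCRC2, 7.49, 7.47 and 7.79 in control and 7.58, 7.43 and 7.42 in si-FAM210B. Control replicate 3, at 7.79, was the control nearest to the si-UQCRC2 arrays, all of which still lay above it. IFI6 rose by 0.38 ± 0.09 in si-UQCRC2 (SE, adjusted p = 0.0443). The call was lost when any array but si-FAM210B replicate 1 and control replicate 3 was left out (adjusted p from 0.0504 to 0.174), and with no filter (0.0551) or quantile normalization (0.0545). Without si-FAM210B replicate 1 and control replicate 3 the change was 0.48 (adjusted p = 0.000281). The difference of si-FAM210B from si-UQCRC2 was -0.485 ± 0.09 (SE, adjusted p = 0.0097), a call made in each of 19 alternatives.

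PARP9, a macrodomain protein that acts with a ubiquitin ligase in interferon signalling, was called in the direct comparison of si-FAM210B with si-UQCRC2 and not against control. It read 4.48, 4.64 and 4.63 in si-FAM210B, 4.83, 4.88 and 4.66 in control and 4.85, 4.86 and 4.87 in si-UQCRC2. Its si-FAM210B arrays lay below all the others. The direct difference was -0.28 ± 0.07 (SE, adjusted p = 0.0381), lost on median centring (0.0655), on quantile normalization (0.0525) and without any array but si-FAM210B replicate 2 and control replicate 3 (adjusted p from 0.0513 to 0.139). Against control, PARP9 in si-FAM210B was at -0.21 (adjusted p = 0.11), and without both arrays that stood apart it was called at -0.22 (0.00804).

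ISG15, MX1 and IFI27 did not pass in any comparison with all arrays weighted equally. ISG15, the ubiquitin-like protein that is conjugated to viral and host proteins, read 6.47, 6.34 and 6.53 in si-FAM210B, 6.22, 6.44 and 6.53 in control and 6.34, 6.21 and 6.38 in si-UQCRC2. Its 3 groups overlapped, and its change was 0.05 (95% interval -0.15 to 0.25) in si-FAM210B and -0.09 (-0.29 to 0.11) in si-UQCRC2. MX1, a GTPase that traps viral ribonucleoproteins, read 4.80, 4.58 and 4.66 in si-FAM210B, 4.54, 4.56 and 4.67 in control and 4.57, 4.56 and 4.55 in si-UQCRC2. Its changes were 0.09 (-0.06 to 0.24) and -0.03 (-0.18 to 0.12). IFI27, a mitochondrial protein that interferon alpha induces, differed by 0.11 (-0.12 to 0.34) and 0.00 (-0.22 to 0.23). These intervals allow changes of up to 0.34 in these 3 genes and do not show that the groups were equal.

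Of the other tested members, none passed with all arrays weighted equally. They were IRF1 and IRF7, transcription factors that switch on interferon genes and their targets, HERC5, the ligase that attaches ISG15, its relative HERC6, USP18, the protease that removes ISG15, IFIT3 and IFIT5, which bind viral RNA or partners that do, PARP14, XAF1, a promoter of apoptosis, and IFI35. IRF7 was at 0.20 and IRF1 at 0.09 in si-FAM210B, and both were within 0.12 of control in si-UQCRC2. USP18 was at -0.15 in si-FAM210B, where its arrays (6.03, 6.15 and 6.15) lay below all controls (6.27, 6.28 and 6.23, adjusted p = 0.128). HERC5 in si-UQCRC2 was at 4.58, 4.60 and 4.57 against 4.85, 4.73 and 4.74 in control, a difference of -0.19 (adjusted p = 0.196). IFI35 in si-UQCRC2 was at -0.22 (adjusted p = 0.0895), with its arrays below all controls. With only si-UQCRC2 and control in the fit IFI35 was called lower (adjusted p = 0.0471), as it was without si-FAM210B replicate 1. PARP14 in si-UQCRC2 was at 0.27 (adjusted p = 0.301), with its arrays above all controls. Without both arrays that stood apart, USP18 was called lower in si-FAM210B, and HERC5 and IFI35 lower and PARP14 higher in si-UQCRC2 (adjusted p = 0.0414, 0.0319, 0.0461 and 0.0211 in this order). That fit also called USP18 (adjusted p = 0.0188), HERC6 (0.0307) and PARP14 (0.00955) lower in si-FAM210B than in si-UQCRC2. IFI35 (0.0352) was called higher there.

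The 10 members under the level filter had means of 2.37 to 4.16 over the 9 arrays. They were IFIH1, TLR3, OAS2, IFIT1, IFIT2, MX2, BST2, SAMD9L, IFI44 and IFI44L. Their differences from control ran from 0.00 to 0.41 in si-FAM210B and from -0.12 to 0.48 in si-UQCRC2. IFIT1, which binds viral RNA that lacks a host-like cap, is named after its values were seen. It read 3.37, 3.37 and 3.18 in si-UQCRC2, 2.82, 2.80 and 2.88 in control and 2.93, 3.11 and 2.88 in si-FAM210B, so si-UQCRC2 lay above both other groups. With no filter it was called higher in si-UQCRC2 than in control (0.48, adjusted p = 0.00895) and lower in si-FAM210B than in si-UQCRC2 (-0.33, adjusted p = 0.0316). Signals this low lie near the background of the arrays, where RMA compresses differences.

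**Figure D4:**
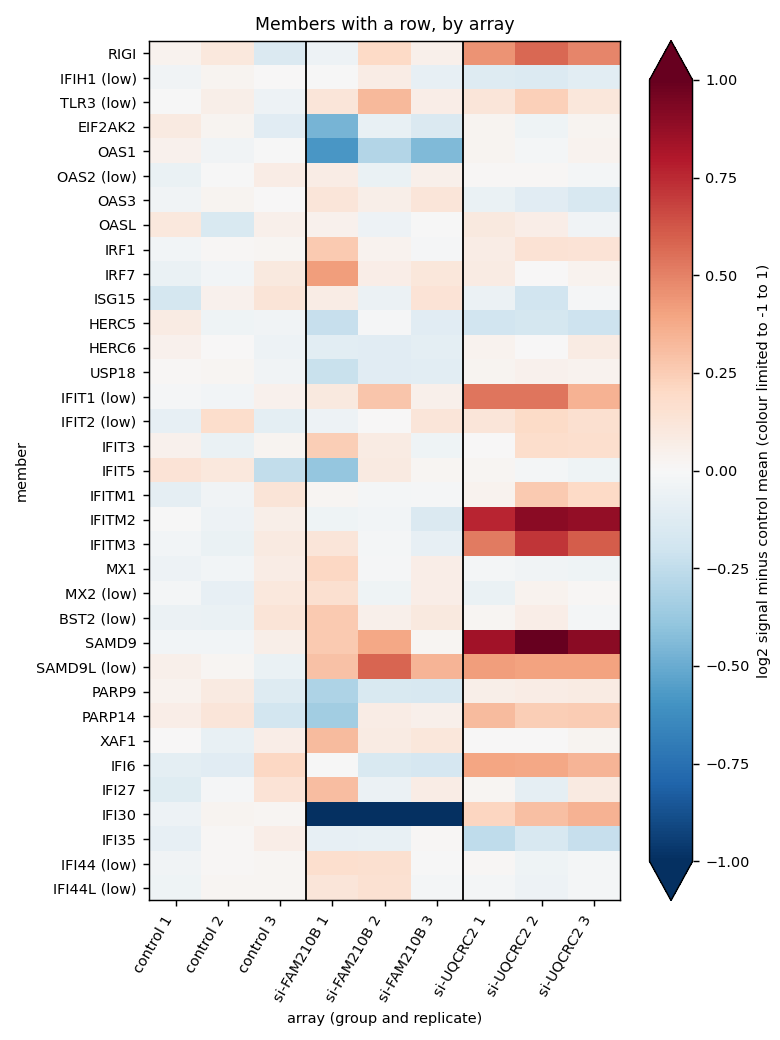
Log2 signal minus the control mean for the 35 members with a row (y axis, "low" marks the 10 under the level filter) on each of the 9 arrays (x axis, group and replicate); red is above and blue below the control mean, with colours limited to -1 to 1. The si-UQCRC2 columns are red for RIGI, IFIT1, IFITM2, IFITM3, SAMD9, SAMD9L and IFI6. The si-FAM210B columns are red for SAMD9L as well, and blue for OAS1 and IFI30.

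The rest of the pathway was described from lists of other genes. For background, 1965 of all 15964 genes tested were higher and 2196 lower in si-FAM210B against control at an unadjusted limma p under 0.05. In si-UQCRC2 against control these numbers were 1261 and 1155. Of 14 interferon genes, all with a row, 11 lay under the level filter at 2.17 to 2.89, and 0 of the 3 tested were called by limma in any comparison, with 1 at an unadjusted p under 0.05 in si-FAM210B and 0 in si-UQCRC2. Of 10 receptor and JAK-STAT genes, 8 were tested and 0 called in any comparison. At an unadjusted p under 0.05, 1 was higher and 1 lower in si-FAM210B and 0 in si-UQCRC2. Of 10 genes of the machinery that processes and loads small RNAs, 5 were tested and 0 called, with 0 at an unadjusted p under 0.05 in either targeted group against control. IFNE, an epithelial type I interferon under the level filter and named after its values were seen, read 3.29, 3.14 and 3.15 in si-UQCRC2 and 2.84, 2.56 and 2.40 in control, and was called with no filter (0.59, adjusted p = 0.0163).

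Of 16 tested genes of nucleic acid sensing and its signalling, 1 was called against control, in si-FAM210B (6.25%, against 6.28% of all genes tested). IFI16, a nuclear DNA sensor, was at 4.56, 4.86 and 4.67 in si-FAM210B, 4.19, 4.14 and 4.20 in control and 4.33, 4.35 and 4.35 in si-UQCRC2. It rose in si-FAM210B by 0.52 ± 0.07 (SE, adjusted p = 0.0036) and was called in each of the 18 alternatives that kept it. A stricter level filter left IFI16 out. All its control arrays lay under the level filter of the main fit, and all arrays of both targeted groups lay above it. IFI16 therefore passed that filter, on the mean of all arrays, only through the targeted groups. Its difference of 0.35 from si-UQCRC2 (adjusted p = 0.0173) was lost on quantile normalization (0.108), on median centring (0.134) and without any si-UQCRC2 array (0.0722 to 0.0793).

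Of 32 further interferon-stimulated genes tested, 2 rose and 1 fell in si-FAM210B, and 3 rose and 0 fell in si-UQCRC2. The 3 calls are 9.38% of the list in each comparison, against 6.28% and 4.46% of all genes tested, and the list's median changes were 0.04 and 0.01. CD274, the immune checkpoint ligand PD-L1, was the gene called in both. Its signal was 5.14, 5.15 and 5.03 in si-UQCRC2, 4.70, 4.91 and 4.81 in si-FAM210B and 4.46, 4.37 and 4.55 in control, with no overlap between the 3 groups. CD274 rose by 0.65 ± 0.07 in si-UQCRC2 (SE, adjusted p = 0.000912). In si-FAM210B it rose by 0.35 ± 0.07 (SE, adjusted p = 0.0232), a call lost without si-FAM210B replicate 3 or control replicate 1 or 2 (0.0703 to 0.108). It was also lost on quantile normalization (0.095), on median centring (0.121) and with only these 2 groups in the fit (0.105). 

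SP100, a nuclear body protein, rose in si-UQCRC2 by 0.37 (adjusted p = 0.0165), and WARS1, the tryptophanyl-tRNA synthetase, by 0.28 (adjusted p = 0.013). ZNFX1, a helicase-like RNA sensor, rose in si-FAM210B by 0.25 (adjusted p = 0.0193), and PSMB9, an immunoproteasome subunit, fell by 0.28 (adjusted p = 0.0214). Each of these 4 calls was lost when single arrays were left out. For SP100 these were control replicates 2 and 3 and every si-UQCRC2 array (0.0554 to 0.0969), and for WARS1 control replicates 1 and 2 and every si-UQCRC2 array (0.0558 to 0.091). For ZNFX1 they were si-FAM210B replicate 3, control replicates 1 and 2 and si-UQCRC2 replicate 1 (0.0505 to 0.0769), and for PSMB9 these 4 and si-UQCRC2 replicate 2 (0.0503 to 0.0917). Median centring ended the calls of SP100 (0.0846), WARS1 (0.0538) and ZNFX1 (0.136), and quantile normalization that of SP100 (0.0647). With only the groups compared in the fit, PSMB9 (0.126) and ZNFX1 (0.132) were not called.

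Of 10 negative regulators of interferon signalling, 0 were called in si-FAM210B against control, where 2 were lower at an unadjusted p under 0.05. In si-UQCRC2 against control 1 fell (10%, against 4.46% of all genes tested). IRF2, a repressor of interferon targets, was at 6.50, 6.47 and 6.45 in si-UQCRC2 and 6.74, 6.77 and 6.64 in control, and fell by 0.24 (adjusted p = 0.0398). The call was lost with no filter (0.0508), on quantile normalization (0.0649), on median centring (0.214) and without si-FAM210B replicate 3, control replicate 1 or 2, or any si-UQCRC2 array (0.0675 to 0.192). Between si-FAM210B and si-UQCRC2, IRF2 differed by 0.21 (adjusted p = 0.0462), lost with no filter, on quantile normalization, on median centring, with only these 2 groups in the fit (0.0581, 0.0677, 0.339 and 0.0723) and without any array but si-FAM210B replicate 1 and control replicate 3 (0.0598 to 0.175). The further interferon-stimulated genes lower in si-FAM210B than in si-UQCRC2 were DDX60L (-0.48), CD274 (-0.30), TAP1 (-0.26) and WARS1 (-0.22), and 0 were higher. They are 12.5% of the list, against 9.78% of all genes tested. Each of these 4 calls was lost without any si-UQCRC2 array and without si-FAM210B replicate 3. DDX60L and TAP1 were also lost without si-FAM210B replicate 1 and control replicates 1 and 2, and CD274 without control replicate 1. With only these 2 groups in the fit none of the 4 was called (0.0542 to 0.0689), and DDX60L and TAP1 were also lost with no filter, on quantile normalization and on median centring (0.0512 to 0.0843), and DDX60L with a robust trended fit (0.0516). The adjusted p without such an array ran from 0.0507 (CD274) to 0.168 (DDX60L).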

How the data were processed

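Total RNA of 9 A549 samples was labelled with biotin and hybridised to Affymetrix whole-transcript arrays, per the labels' protocols. The deposited table holds log2 values that the authors made with RMA, per the submitters' processing notes. RMA subtracts background, gives all arrays the same distribution of probe signals and summarises the probes of each row, which compresses differences of weak transcripts. Its software is not given in the sources used here, nor is its annotation. The lowest array median was 4.20 and the highest 4.40. Precision is limited by the number of arrays.

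Of 67528 rows, 23781 carried 1 gene symbol, 1543 several and 42204 none. Symbols were updated through RefSeq records (21497 by Entrez identifier, 1974 by symbol, 306 by synonym, 4 kept). For 528 of the 22411 genes with more than 1 row, the row with the highest mean was kept. Genes with a mean of at least 4.25, the median of all row means, were tested (15964).

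Group means were compared with limma 3.58.1 in R 4.3.3 (lmFit and eBayes, all 9 arrays in 1 fit, no covariates). P-values were adjusted by Benjamini-Hochberg over the 15964 genes, with a threshold of 0.05. All 38 members were to be named, with full values for called members, and from the other lists the called genes. Members and lists were chosen with earlier results of these data known. Alternatives covered filters, normalization, row choice, arrays entering the fit, array weights (gene-by-gene method), a replicate block and each array left out. Leaving out both arrays that stood apart was added after seeing the data. Same-numbered arrays did not deviate together (correlations from -0.58 to 0.51), so replicate numbers were not used as pairs. Promoter windows were taken from RefSeq, assembly GRCh38.p14, and searched on both strands.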

Additional observations from a re-analysis of the deposited data

Results flagged for a closer look

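A direct test of the difference between the targeted groups drew attention to 9 members, and in each the change from control differed between si-FAM210B and si-UQCRC2. For IFI30 the difference, si-FAM210B minus si-UQCRC2, was -1.51 on the log2 scale, with a fall in the first and a rise in the second (limma adjusted p = 4.73e-06). For IFITM2 it was -0.92, for SAMD9 -0.69, for IFITM3 -0.61, for IFI6 -0.485 and for RIGI -0.43, with changes called against control in si-UQCRC2 and not in si-FAM210B. For OAS1 it was -0.46, with a change called in si-FAM210B and not in si-UQCRC2. OAS3 differed by 0.21 and PARP9 by -0.28 with neither group called against control. FAM210B RNA itself did not pass in the arrays labelled si-FAM210B.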

How the results depend on the processing

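No called change of a tested member, or of a gene called in the other lists, turned its direction in any alternative. UQCRC2, and SAMD9L, IFIT1 and IFNE, which were called only with no filter, were not part of that check. The number of members called (2, 6 and 9 for si-FAM210B against control, si-UQCRC2 against control and si-FAM210B against si-UQCRC2) stayed within 1.5 times under most settings. With array weights it was 8 (2 higher, 6 lower), 12 (9 and 3) and 18 (4 and 14). These are 32%, 48% and 72% of the tested members, against 44%, 26% and 43.9% of all genes tested. The share in si-FAM210B against control thus lay below that of all genes. Without both arrays that stood apart the number of members called was 5, 10 and 13. With only the 2 groups compared, 1 member was called in si-FAM210B (4%, against 1.42% of all genes tested). In si-UQCRC2 against control 7 were then called, 6 higher and 1 lower (28%, against 9.08%). In the direct comparison 8 were called, all lower (32%, against 6.51%). Leaving out each array gave 2 to 3, 3 to 7 and 6 to 11 members, the 3 being without si-UQCRC2 replicate 2. With the replicate number as a block it was 2, 4 and 7, although the numbers do not pair the samples. The members it lost were IFI6 (adjusted p = 0.108) and IFI30 (0.0595) in si-UQCRC2 and OAS3 (0.0999) and PARP9 (0.0814) in the direct comparison, and among other genes it ended calls of CD274, PSMB9, ZNFX1, AKR1C1, EPCAM, IRF2, WARS1, DDX60L and TAP1 (0.056 to 0.126). With no filter the number of members called was 3, 7 and 10 of 35. These are 8.57%, 20% and 28.6% of the members, against 3.78%, 2.85% and 6.52% of all genes. SAMD9L was gained in both comparisons with control and IFIT1 in both comparisons with si-UQCRC2, while IFI6 was lost in si-UQCRC2 against control. Why the numbers differed between the other settings was not tested. Over all genes, the calls (1002, 712 and 1561) were 559, 499 and 1163 after median centring, 227, 1449 and 1040 with only the groups compared, 409, 342 and 798 with the block, 7018, 4145 and 7002 with array weights, and 3889, 2736 and 3835 without both arrays. Leaving out single arrays gave 306 to 1975, 249 to 1654 and 505 to 3280. With 3 arrays per group, differences near 0.2 lie within the confidence intervals of most members. The level filter kept 10 members out of the main fit.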
